A study of Mus musculus with 6 samples.

Results

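Expression of 32 genes of the pyruvate dehydrogenase complex and the tricarboxylic acid (TCA) cycle was compared between the hearts of wild-type (WT) mice and mice lacking the melanocortin-4 receptor (Mc4r KO). The genes were chosen by name from the deposited table, in which each symbol matched 1 gene. They are 32 of 54532 genes in the table, and all 32 were among the 18035 genes tested. The groups were 3 WT and 3 homozygous Mc4r KO mice of 12 weeks, littermates from heterozygous crosses on the C57B/6/N background with free access to standard chow. The knockout is carried in every cell, so the heart and the rest of the body lacked the receptor together. Each library was made from polyadenylated RNA and is given as heart in the tissue label, as muscle in the title, and as left ventricle in the study's discussion. The study gives male sex for the mice of its heart function measurements. The question addressed is which transcripts differ in the heart before its function does.

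Pyruvate made from glucose or lactate enters mitochondria through a carrier of MPC1 and MPC2, and the pyruvate dehydrogenase complex turns it into acetyl-CoA. Kinases (PDK1 to PDK4) phosphorylate and switch off this complex, and phosphatases (PDP1 and PDP2) switch it on again. Acetyl-CoA, also the end product of fatty acid oxidation, is burned in the TCA cycle, and the malate-aspartate shuttle carries reducing equivalents from the cytosol into mitochondria. The adult heart relies mostly on fatty acids, and the kinases and phosphatases set how much glucose-derived carbon is used alongside them.

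Reads counted on genes numbered 14691076 to 16047003 per library. FPKM are fragments per kilobase of gene length, on the scale between libraries that the deposited values have. Transcripts of the mitochondrial chromosome took 47.1% to 59.3% of the summed FPKM in WT libraries and 43.0% to 46.6% in Mc4r KO libraries, without overlap. WT replicate 3 stood apart: its log expression correlated with the other WT libraries at 0.946 and 0.952, and with Mc4r KO replicate 1 at 0.962. The summed FPKM of 10 cardiomyocyte markers was 14820 to 16113 in WT and 18012 to 19649 in Mc4r KO libraries, which fits the heart label. The largest of them, Actc1, was at 5178 ± 528 FPKM in WT and 7539 ± 666 in Mc4r KO mice (SD, n = 3). The 8 skeletal muscle markers summed to 51.9 to 239 FPKM in WT and 235 to 556 in Mc4r KO libraries, nearly all of it from Acta1, an actin that the heart also expresses, which was at 160.2, 238 and 49.7 FPKM in WT and 233, 555 and 288 in Mc4r KO mice. The other 7 were each at 1.12 FPKM or less, with Myh4 at 0 in all libraries. The 6 atrial markers summed to 29.2 to 825 FPKM in WT and 6.60 to 140.2 in Mc4r KO libraries, with WT replicate 3 highest. The 7 fibroblast markers summed to 205 to 218 FPKM in WT and 152 to 177 in Mc4r KO libraries, and the 5 red cell markers to 859 to 6344 and 620.3 to 1651. Dcn, the largest fibroblast marker, was at 119 ± 8.94 FPKM in WT and 82.4 ± 5.03 in Mc4r KO mice (SD, n = 3). Of the 7, 5 were lower, 3 of them without overlap, and 2 were higher, with Col1a1 at 15.4 and 20.2 FPKM. The 6 endothelial markers summed to 151 to 188 FPKM in WT and 167 to 198 in Mc4r KO libraries. For the 7 smooth muscle and pericyte markers the sums were 234 to 305 and 204 to 302. For the 7 macrophage markers they were 82.8 to 145 and 111 to 139. The sums of 6 white and of 5 brown adipocyte markers also overlapped. Among those tested, 2 endothelial and 1 brown adipocyte marker were higher without overlap, and 3 macrophage and 1 white adipocyte marker lower. The part of these differences in the results below was not tested. In whole tissue, fewer cells of a type and less RNA per cell cannot be told apart. Mc4r had 0 reads in 5 libraries and 2 reads in WT replicate 3, so the expression data give no check of the genotype.

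None of the 32 genes was called different between Mc4r KO and WT mice by limma, a linear model fitted across all genes, where a call required both a log2 fold change beyond 0.75 in either direction and an adjusted p under 0.05. The same rule called 0.460% of all genes tested (83 genes), and an adjusted p under 0.05 at any fold was reached by 0.582% of all genes and by 0 of the 32. The smallest adjusted p was 0.0578, for Pdp1. At an unadjusted p under 0.05, 9 of the 32 genes (28.1%) were higher in Mc4r KO mice against 12.0% of all genes tested, and 1 (3.12%) was lower against 8.83%. In 11 of the 32 genes (34.4%) every Mc4r KO library lay above every WT library, against 14.1% of all genes, and in 1 (3.12%) every Mc4r KO library lay below, against 12.4%. These counts depended on scaling: 4 genes were higher and 6 lower without overlap when libraries were scaled to the FPKM outside the mitochondrial chromosome (6.42% and 22.3% of all genes), and 6 and 6 after quantile normalization (12.6% and 12.4%). The median log2 fold change was 0.06 over the 32 genes and -0.01 over all genes tested. In 26 of the 32 genes the log2 fold change was within 0.3 of 0.

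**Figure D1:**
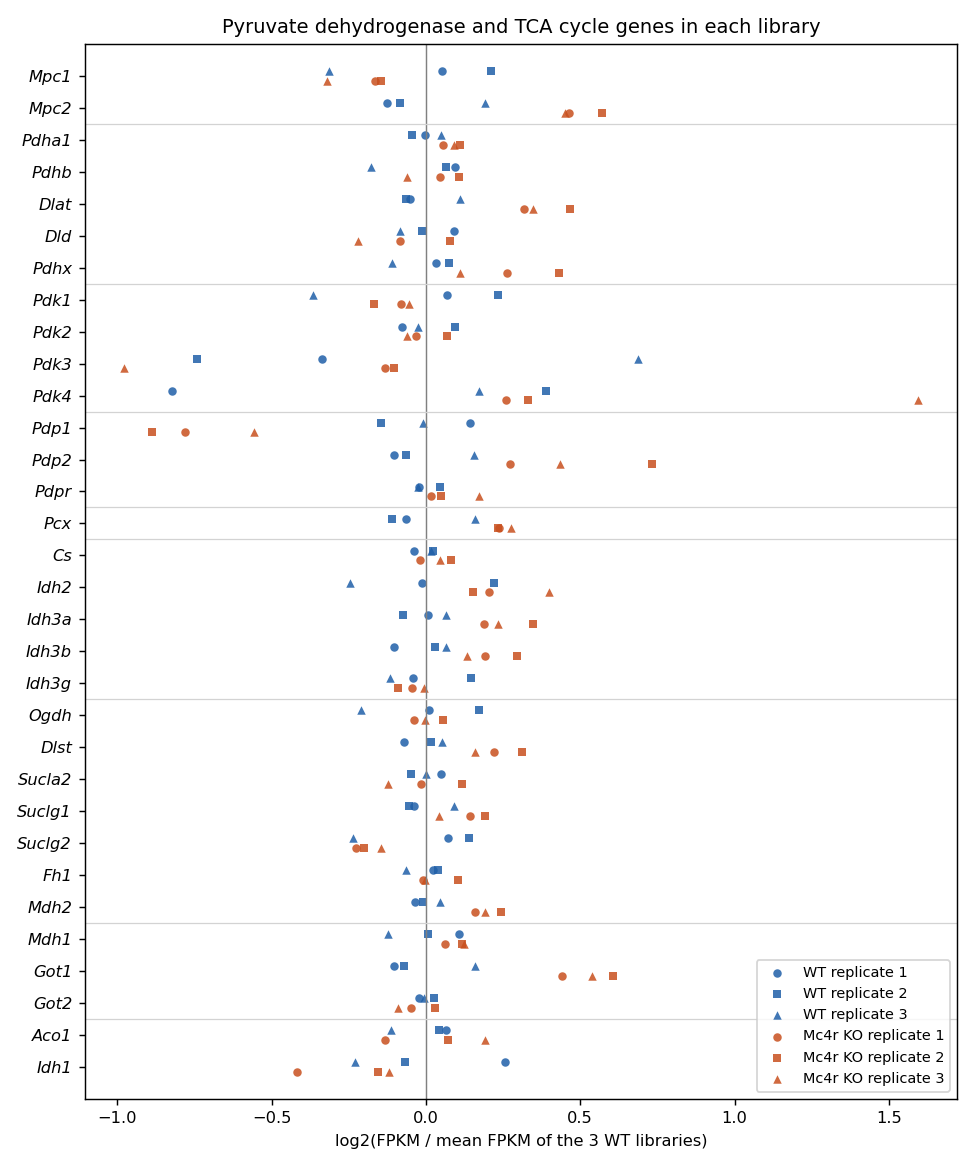
Expression of the 32 genes in each library, as log2 of the FPKM over the mean FPKM of the 3 WT libraries (x axis), with genes in rows grouped by role. Each point is 1 library (blue WT, orange Mc4r KO). Pdp1 lies to the left in every Mc4r KO library, Got1, Mpc2, Dlat and Pdp2 to the right, and Pdk4 is spread by 1 WT and 1 Mc4r KO library.

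The genes were abundant: 21 of the 32 were among the 1000 genes of highest WT FPKM. Mdh1, the cytosolic malate dehydrogenase of the shuttle, was highest at 723 ± 58.1 FPKM in WT mice (SD, n = 3), followed by Idh2, the NADP-dependent mitochondrial isocitrate dehydrogenase, at 517 ± 83.3. Pdk3 was lowest at 0.910 ± 0.490 FPKM, from 19 to 64 reads per library. Every other gene had at least 393 reads in each library.

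The pyruvate carrier and the core of the complex showed unequal values among subunits that work together. Mpc2 (chromosome 1, positions 165460637 to 165481214 of mm10) encodes 1 of the carrier's subunits and was at 27.1, 27.9 and 33.8 FPKM in WT replicates 1, 2 and 3 and at 40.8, 43.9 and 40.5 in Mc4r KO replicates 1, 2 and 3. All Mc4r KO libraries were above all WT libraries, with a log2 fold change of 0.50 ± 0.10 (SE, limma, adjusted p = 0.0787). Its partner Mpc1 ran from 19.6 to 28.2 FPKM in WT and from 19.5 to 22 in Mc4r KO mice, and the groups overlapped (log2 fold change -0.19, 95% interval -0.52 to 0.14). The ratio of Mpc2 to Mpc1 was therefore 1.07, 0.990 and 1.73 in WT and 1.88, 2.0 and 2.08 in Mc4r KO libraries, with WT replicate 3 closest to the Mc4r KO values. Mpc1 reads are uncertain, since 26.3% of its words of 50 bases, on either strand, also occur in other genes. Of its exonic bases, 23.1% overlap a gene on the opposite strand, which is 1 of those other genes, so the figures are partly the same bases.

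Dlat (chromosome 9, 50634633 to 50659780), the E2 acetyltransferase that forms the core of the complex, was at 75, 74.3 and 84.0 FPKM in WT and 97.0, 107 and 99.0 in Mc4r KO mice. The groups did not overlap, and the log2 fold change was 0.38 ± 0.09 (SE, limma, adjusted p = 0.0949). Pdhx, which anchors the E3 subunit to that core, was at 30.2, 31.1 and 27.4 FPKM in WT and 35.5, 39.8 and 31.9 in Mc4r KO mice, again without overlap but with Mc4r KO replicate 3 within 1 FPKM of the highest WT library (log2 fold change 0.27 ± 0.11, adjusted p = 0.212). Pdha1, the E1 alpha subunit that the kinases phosphorylate, was at 205, 199 and 213 FPKM in WT and 213, 222 and 219 in Mc4r KO mice. Its groups were separated only by a fraction of 1 FPKM, and its log2 fold change was 0.09 (95% interval -0.10 to 0.27). Pdhb, the E1 beta subunit, and Dld, the E3 subunit shared with the oxoglutarate dehydrogenase complex, overlapped between the groups, with log2 fold changes of 0.03 (-0.21 to 0.28) and -0.07 (-0.32 to 0.17). The ratio of Dlat to Pdha1 was 0.366, 0.373 and 0.395 in WT libraries and 0.455, 0.485 and 0.452 in Mc4r KO libraries. This ratio does not depend on the scaling of a library and was higher in each Mc4r KO library than in each WT library. The ratio of Dlat to Pdhb overlapped, at 0.438, 0.443 and 0.592 in WT and 0.587, 0.623 and 0.645 in Mc4r KO libraries. Dlat to Pdhx overlapped as well, at 2.48, 2.39 and 3.07 in WT and 2.73, 2.70 and 3.10 in Mc4r KO libraries. Dlat to Dld did not, at 0.592, 0.630 and 0.748 in WT and 0.865, 0.855 and 0.969 in Mc4r KO libraries. Reads of both E1 genes are less certain, since 12.9% of the words of 50 bases of Pdha1 and 11.4% of those of Pdhb occur in other genes. Of the exonic bases of Pdha1, 16.2% overlap Map3k15 on the opposite strand, which is also 1 of the genes sharing its words.

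The phosphatases and kinases of the complex held both the lowest and the highest fold change of the 32 genes. Pdp1 (chromosome 4, 11958184 to 11966452), the calcium-stimulated phosphatase, was at 11.7, 9.61 and 10.6 FPKM in WT replicates 1, 2 and 3. In Mc4r KO replicates 1, 2 and 3 it was at 6.19, 5.74 and 7.22 FPKM. Every Mc4r KO value was below every WT value, and the log2 fold change was -0.73 ± 0.12 (SE, limma, adjusted p = 0.0578, 95% interval -1.02 to -0.44). Pdp1 therefore missed both the adjusted p and the fold threshold by a small margin, with a mean of 6.38 FPKM in Mc4r KO against 10.6 in WT mice. Without WT replicate 3 the value was -0.73 with an adjusted p of 0.0299, and over the 18 alternative settings the adjusted p ran from 0.0135 to 0.292. With the mitochondrial share of each library as a covariate, Pdp1 was at -0.75. That share did not overlap between the groups, so a fit with this covariate cannot tell share and genotype well apart.

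Pdp2, the isoform that responds to insulin, was at 5.17, 5.31 and 6.19 FPKM in WT and 6.71, 9.24 and 7.51 in Mc4r KO mice. It was higher in all Mc4r KO libraries, opposite to Pdp1, with a log2 fold change of 0.48 ± 0.14 (adjusted p = 0.132). The summed FPKM of both isoforms overlapped, at 14.9 to 16.9 in WT and 12.9 to 15 in Mc4r KO libraries. Pdp1 made up 69.4%, 64.4% and 63.0% of this sum in WT and 48.0%, 38.3% and 49% in Mc4r KO libraries. The composition of the phosphatases thus separated the groups by more than their spread, while the total did not. Pdpr, the regulatory subunit of the phosphatase, was near equal at 23.3 ± 0.655 and 24.6 ± 1.43 FPKM (log2 fold change 0.08, -0.11 to 0.27).

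Pdk4, the kinase that is induced by fasting and fatty acids, had the largest positive log2 fold change at 0.82 ± 0.43, but its libraries overlapped (adjusted p = 0.333, 95% interval -0.20 to 1.83). Its FPKM was 54.3, 126 and 108 in WT and 115, 121 and 290.1 in Mc4r KO mice. WT replicate 1 was far below and Mc4r KO replicate 3 far above the other 4 libraries, which lay between 108 and 126. Without Mc4r KO replicate 3 the log2 fold change was 0.38, without WT replicate 1 it was 0.45, and with the mitochondrial share as a covariate it was 0.18. Pdk2, the other abundant heart kinase, was at 116 ± 7.13 and 115 ± 5.48 FPKM, a log2 fold change of -0.01 with an interval of -0.21 to 0.20. Pdk1 and Pdk3 also overlapped, with log2 fold changes of -0.08 and -0.25. Pdk4 made up 28.4%, 45.0% and 44.5% of the summed kinase FPKM in WT and 45.5%, 45.6% and 68.2% in Mc4r KO libraries, so that 4 of the 6 libraries sat at nearly the same share. The ratio of summed kinase to summed catalytic phosphatase FPKM was 11.3, 18.7 and 14.5 in WT and 19.6, 17.7 and 28.9 in Mc4r KO libraries, with overlap.

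**Figure D2:**
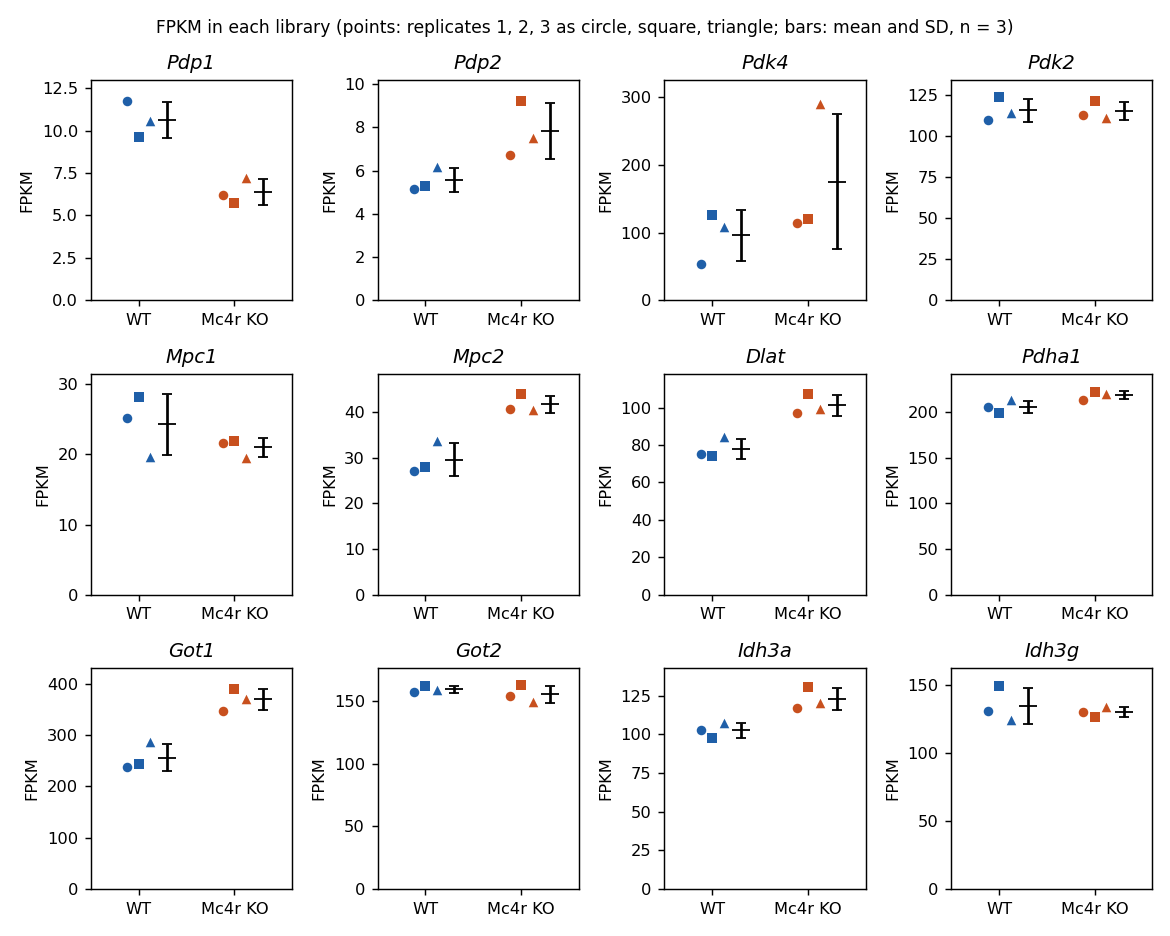
FPKM (y axis, from 0) of 12 of the genes in each library, with 1 panel per gene. Points are libraries (circle, square and triangle for replicates 1, 2 and 3) and bars the mean and SD of 3. Pdp1 is lower and Pdp2, Mpc2, Dlat, Got1 and Idh3a are higher in all Mc4r KO libraries, while the partners Mpc1, Got2 and Idh3g overlap and Pdk4 is set by WT replicate 1 and Mc4r KO replicate 3.

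**Figure D3:**
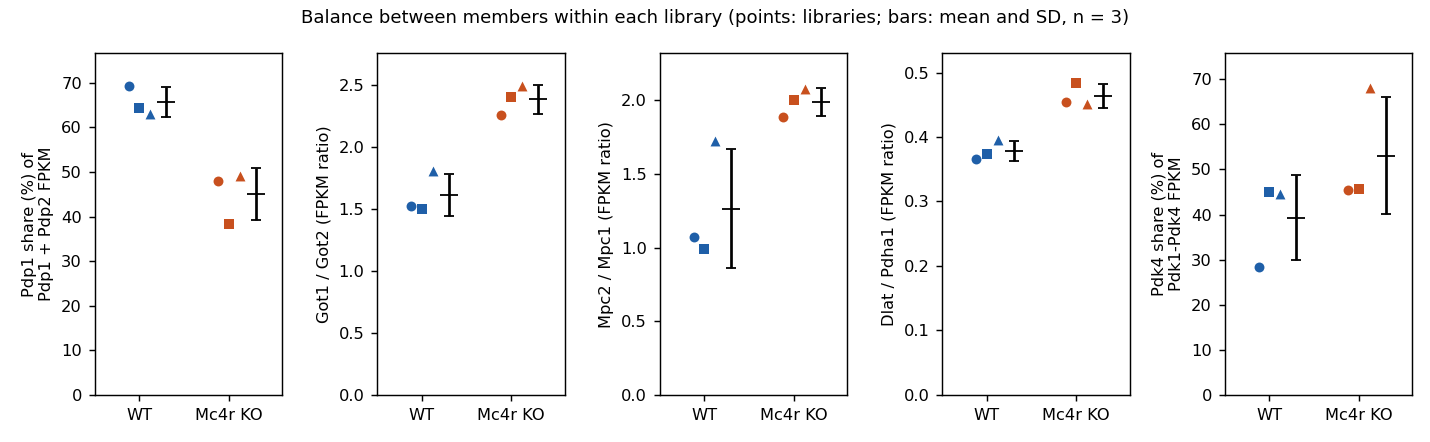
Ratios and shares of FPKM between genes of one step, computed within each library, so that they do not depend on library scaling (points are libraries, marked as replicates 1, 2 and 3 by circle, square and triangle, bars the mean and SD of 3). The Pdp1 share is 63.0% or more in WT and 49% or less in Mc4r KO libraries, and the Got1 to Got2 ratio lies at 1.81 or below in WT and at 2.26 or above in Mc4r KO libraries.

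Pcx, the carboxylase that refills the cycle with oxaloacetate, was low in the heart at 6.64, 6.44 and 7.76 FPKM in WT and 8.18, 8.18 and 8.41 in Mc4r KO mice. Its groups did not overlap, and the log2 fold change was 0.25 ± 0.10 (limma, adjusted p = 0.219).

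In the first part of the cycle, Cs, the citrate synthase often used as a measure of mitochondrial content, was at 212 ± 4.77 FPKM in WT and 217 ± 7.62 in Mc4r KO mice (SD, n = 3). Its log2 fold change of 0.04 had an interval of -0.15 to 0.23. Of the 3 subunits of the NAD-dependent isocitrate dehydrogenase, the catalytic Idh3a was at 103, 97.3 and 107 FPKM in WT and 117, 131 and 120.5 in Mc4r KO mice. Idh3b was at 152, 166 and 170.3 FPKM in WT and 186, 199 and 178 in Mc4r KO mice. Both were higher in all Mc4r KO libraries, with log2 fold changes of 0.26 ± 0.09 (adjusted p = 0.160) and 0.21 ± 0.09 (adjusted p = 0.250). The third subunit, Idh3g, was at 134 ± 12.9 and 130.1 ± 3.73 FPKM, with overlap and a log2 fold change of -0.04 (-0.27 to 0.18). Idh2 ran from 436 to 602 FPKM in WT and from 574 to 681 in Mc4r KO mice, with overlap (log2 fold change 0.26, -0.08 to 0.61).

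In the second part of the cycle, Dlst, the E2 subunit of the oxoglutarate dehydrogenase complex, was at 55.9, 59.4 and 60.9 FPKM in WT and 68.4, 72.9 and 65.6 in Mc4r KO mice. Mdh2, the mitochondrial malate dehydrogenase, was at 242, 246 and 256 FPKM in WT and 277, 294 and 283 in Mc4r KO mice. Neither overlapped between the groups, and their log2 fold changes were 0.23 ± 0.08 (adjusted p = 0.175) and 0.20 ± 0.08 (adjusted p = 0.235). Ogdh, the E1 subunit that pairs with Dlst, overlapped at 397 ± 52.3 and 398 ± 13.3 FPKM (log2 fold change 0.01, -0.27 to 0.30). The succinyl-CoA ligase subunits Sucla2, Suclg1 and Suclg2 overlapped as well, with log2 fold changes of -0.01, 0.13 and -0.18, and so did the fumarase Fh1 at 0.03 (-0.16 to 0.22). Of the 50-base words of Suclg2, 16.0% occur in another gene. Without WT replicate 3, Suclg2 was at -0.30 with an adjusted p of 0.0472, against 0.0472 to 0.861 over all alternatives. In the same fit Got1, Mpc2 and Dlat, besides Pdp1, also reached an adjusted p under 0.05, as did 10.3% of all genes tested, but none passed the fold threshold.

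In the malate-aspartate shuttle the clearest difference was in Got1 (chromosome 19, 43499752 to 43524605), the cytosolic aspartate aminotransferase. It was at 238, 243 and 286 FPKM in WT and 348, 389.5 and 371 in Mc4r KO mice. All Mc4r KO libraries exceeded all WT libraries, and the log2 fold change was 0.53 ± 0.11 (SE, limma, adjusted p = 0.0756, 95% interval 0.28 to 0.79). Over the alternatives its adjusted p ran from 0.0129 to 0.439, that of Mpc2 from 0.0108 to 0.497 and that of Dlat from 0.0227 to 0.491. The highest of each came from the fit with the mitochondrial share as a covariate, in which Got1, Mpc2 and Dlat were at log2 fold changes of 0.35, 0.28 and 0.27. Since the share separates the groups, these values are not genotype effects freed of it. Got2, the mitochondrial aspartate aminotransferase, was at 159 ± 2.77 FPKM in WT and 155 ± 6.61 in Mc4r KO mice, a log2 fold change of -0.04 (-0.22 to 0.15). The ratio of Got1 to Got2 was 1.52, 1.5 and 1.81 in WT and 2.26, 2.40 and 2.49 in Mc4r KO libraries. Got2 reads are less certain, since 25.6% of its words of 50 bases occur in other genes. Mdh1 overlapped (log2 fold change 0.10, -0.15 to 0.36). The cytosolic Aco1 and Idh1, which act on citrate and isocitrate outside mitochondria, overlapped at log2 fold changes of 0.05 (-0.22 to 0.31) and -0.22 (-0.56 to 0.12).

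The promoter sequences of some of the paralogs and partners with unequal values, Got1, Got2, Dlat and Mpc2, are shown to place these genes in their genomic context. RefSeq promoters (GRCm38.p6, windows of 300 bases around the gene start in RefSeq) were found for 30 of the 32 genes, all but Pdp1 and Idh3a. For Mpc2, Mpc1, Mdh1 and Sucla2 the RefSeq start lies 623, 883, 433 and 27467 bases from the start in the deposited table, so these windows do not span the latter. They are printed 5′ to 3′ on the strand of the gene with the CCAAT box (CCAAT, or ATTGG for the reverse strand) in capitals. Got1 (chr19:43524556-43524855, minus strand) holds 6, Got2 (chr8:95888352-95888651, minus strand) and Dlat (chr9:50659731-50660030, minus strand) none, and Mpc2 (chr1:165461010-165461309, plus strand) 1. Among those not printed, Mpc1 holds 2, Pdp2 holds 2 and Pdha1 none.
Got1: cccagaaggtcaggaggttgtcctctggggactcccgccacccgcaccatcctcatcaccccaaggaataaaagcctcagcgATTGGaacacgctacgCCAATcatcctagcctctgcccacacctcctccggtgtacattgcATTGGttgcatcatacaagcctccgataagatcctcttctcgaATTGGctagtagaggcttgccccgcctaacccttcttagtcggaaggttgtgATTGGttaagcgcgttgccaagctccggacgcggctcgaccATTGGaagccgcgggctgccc
Got2: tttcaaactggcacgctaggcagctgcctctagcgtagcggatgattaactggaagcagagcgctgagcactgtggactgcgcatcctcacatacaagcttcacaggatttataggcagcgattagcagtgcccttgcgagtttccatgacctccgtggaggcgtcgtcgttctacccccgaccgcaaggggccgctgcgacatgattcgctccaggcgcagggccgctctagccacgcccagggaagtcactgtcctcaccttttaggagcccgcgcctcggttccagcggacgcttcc
Dlat: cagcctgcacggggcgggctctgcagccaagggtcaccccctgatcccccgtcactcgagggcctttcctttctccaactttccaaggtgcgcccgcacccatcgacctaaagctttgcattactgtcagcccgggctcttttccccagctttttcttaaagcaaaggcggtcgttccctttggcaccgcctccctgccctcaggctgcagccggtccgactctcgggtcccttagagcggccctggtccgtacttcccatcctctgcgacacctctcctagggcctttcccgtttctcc
Mpc2: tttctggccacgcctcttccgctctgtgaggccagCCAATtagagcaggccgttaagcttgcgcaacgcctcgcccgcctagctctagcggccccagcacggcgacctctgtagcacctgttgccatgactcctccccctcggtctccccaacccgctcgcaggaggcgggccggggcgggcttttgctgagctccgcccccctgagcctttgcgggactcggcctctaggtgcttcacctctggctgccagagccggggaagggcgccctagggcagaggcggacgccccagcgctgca
The CCAAT letters occurred in 19 of the 30 promoters and in 38.2% of all 20484 RefSeq promoters of the same length, on either strand. The E-box CACGTG occurred in 4 of 30 (Pcx, Pdk2, Pdp2 and Pdpr) and in 7.68% of all promoters, and neither the letters TNAAGGTCA of estrogen-related receptors (1.13% of all promoters) nor the core GCATGCGC of nuclear respiratory factor 1 (3.34%) was found in the 30 promoters. These matches are a description of letters in a window, with Got1 higher in Mc4r KO libraries having the most CCAAT boxes and Dlat, also higher, having none.

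The 32 genes together summed to 4124 to 4479 FPKM in WT and 4595 to 4905 FPKM in Mc4r KO libraries, without overlap. As a share of the FPKM outside the mitochondrial chromosome, this was 1.69% to 2.08% in WT and 1.83% to 1.88% in Mc4r KO libraries, with overlap. Relative to the summed cardiomyocyte markers, the ratio was 0.273 to 0.278 in WT and 0.246 to 0.262 in Mc4r KO libraries. That sum leans on Actc1, its largest marker, at 5178 FPKM in WT and 7539 in Mc4r KO mice. Tnni3 was at 1675 and 1669 FPKM and Pln at 581 and 455. Of the 10 markers, 7 had a higher and 3 a lower value in Mc4r KO mice. The lower ratio in Mc4r KO libraries rests on Actc1 being in the sum, so it holds for this marker list only. It is not to be read as a lower level of the 32 genes per cardiomyocyte. The direction of the summed level thus depended on what it was divided by. When libraries were scaled to the FPKM outside the mitochondrial chromosome, the median log2 fold change was -0.19 over all genes and -0.13 over the 32, and 4 genes (Got1, Dlat, Mpc2 and Pdp2) were higher without overlap and 6 lower, namely Cs, Pdha1, Got2, Pdk2, Suclg2 and Pdp1. Got1, Mpc2, Dlat, Pdp1 and Pdp2 kept their direction under this scaling, and Mdh1, Ogdh, Cs, Pdha1, Pdhb, Fh1, Suclg1, Pdpr and Aco1 did not. With quantile normalization those genes and Mdh2 were lower in Mc4r KO mice, Mdh2 by a log2 fold change of -0.05.

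**Figure D4:**
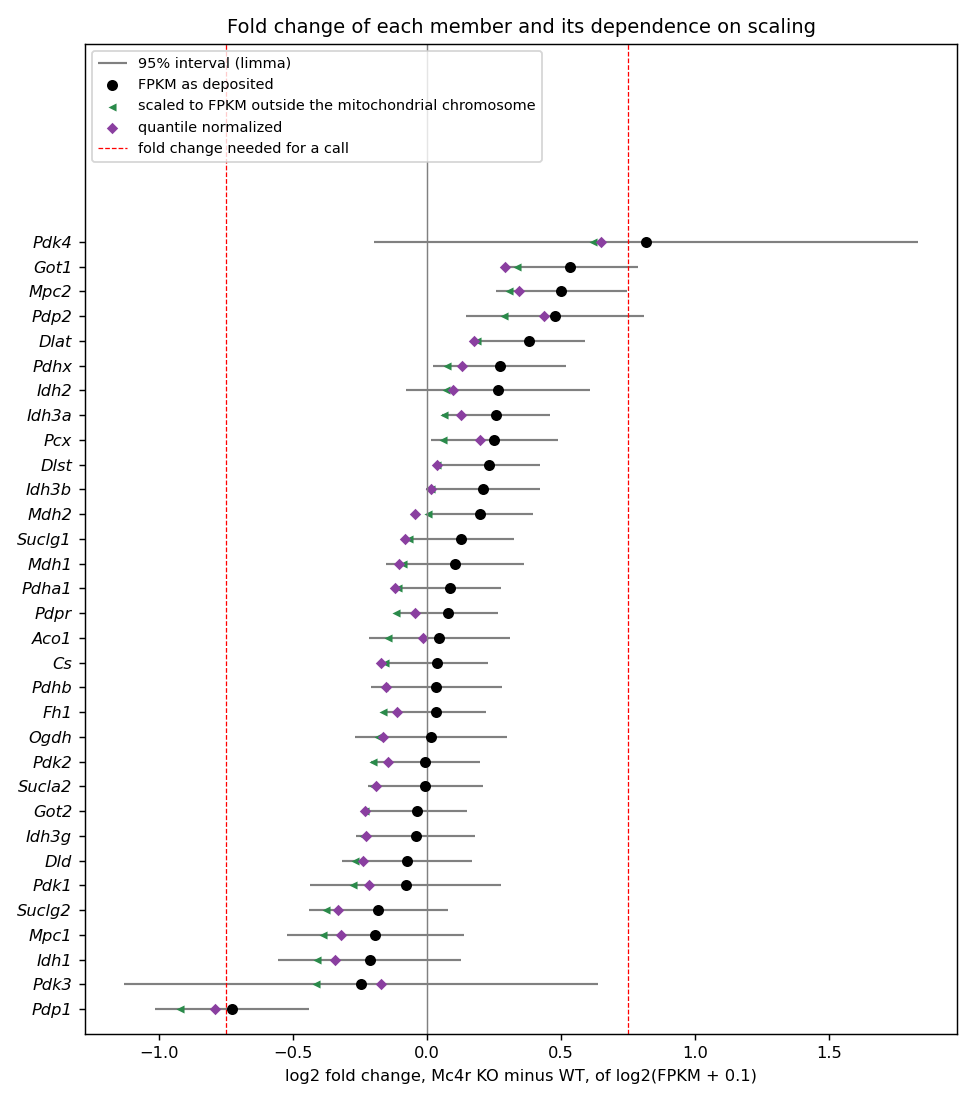
Log2 fold change of log2(FPKM + 0.1), Mc4r KO minus WT, of the 32 genes (x axis), sorted by size, with the 95% interval of limma (bars), the values after scaling to the FPKM outside the mitochondrial chromosome (green triangles) and after quantile normalization (purple diamonds), and the fold threshold of 0.75 (dashed). Pdp1 at -0.73 and Got1, Mpc2, Dlat and Pdp2 between 0.38 and 0.53 lie on their own side of 0 with every scaling, and with FPKM as deposited only Pdk4 at 0.82 passes the fold threshold, with an interval that includes 0. With the other scalings Pdk4 is at 0.62 and 0.65, inside the threshold, and Pdp1 at -0.92 and -0.79, beyond it.

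Of 44 other genes of neighbouring steps (succinate dehydrogenase, lipoylation, lactate dehydrogenase, anaplerosis and carriers), 40 were tested and 0 were called. At an unadjusted p under 0.05 (limma), 8 of the 40 were higher and 3 lower, against 12.0% and 8.83% of all genes tested. In 11 of the 40 every Mc4r KO library lay above every WT library and in 2 below, against 14.1% and 12.4% of all genes. Among these the largest were Sdhaf4, an assembly factor of succinate dehydrogenase, at a log2 fold change of 0.94 (limma, adjusted p = 0.134), and Mrps36, now known as a subunit of the oxoglutarate dehydrogenase complex, at 0.62 (adjusted p = 0.0999). Ldha, the lactate dehydrogenase subunit that is common in skeletal muscle, was at 146 ± 19.6 and 213 ± 6.45 FPKM (log2 fold change 0.56, adjusted p = 0.0754). Ogdhl, a paralog of Ogdh, was at 43.1 ± 6.37 and 61.7 ± 1.01 FPKM (0.53, adjusted p = 0.0894). Me2, a mitochondrial malic enzyme, was lower in every Mc4r KO library, at -0.25 (adjusted p = 0.220).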

How the data were processed

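The authors sequenced polyadenylated RNA (NEBNext Ultra kit) from 3 WT and 3 Mc4r KO hearts, 1 library per mouse, aligned it with HISAT2 (version 2.0.5, mm10 per the labels), counted reads on genes with featureCounts, and deposited FPKM per gene and library. The strand setting and annotation release are not given in the sources used here. Multiplied by gene length, 100% of the deposited values came out as whole reads (tolerance 0.02 reads), with 14691076 to 16047003 reads on genes per library.

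Limma 3.58.1 (R 4.3.3) with trend was fitted to log2(FPKM + 0.1) of all 6 libraries without covariates, for the 18035 genes whose mean FPKM reached 0.1, with Benjamini-Hochberg adjustment over all of them and two-sided p-values. Median-of-ratios factors of the deposited values were 1 in each library. The values were thus already on a median-of-ratios scale, not scaled to the reads on genes alone, and the fit left them unchanged. Fold changes are on the log2(FPKM + 0.1) scale and understate those of low genes. A gene was called where the log2 fold change lay beyond 0.75 in either direction at an adjusted p under 0.05. The fit was checked on simulated data with known changes. Intervals are 95% intervals of limma. Gene models and words of 50 bases came from GENCODE M21, which held 99.9% of the identifiers, and promoters from RefSeq. Figures were drawn with matplotlib 3.10.9 (Python 3.11.15).

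The genes and lists were chosen with earlier results of these data known. Every gene is named, with each library's value where the groups did not overlap or the unadjusted p was under 0.05. Of the other pathway genes, those called and the 4 largest without overlap in each direction are named. A result for a single gene among these is not reported here. Alternatives were pseudocounts of 1 and 0.01, other filters and scalings, voom on the recovered reads, array weights, robust empirical Bayes, a replicate block, the mitochondrial share as a covariate, protein-coding genes only, and fits without each library. Non-overlap counts without WT replicate 3 and under other scalings were added after seeing the data. No pairing by replicate number is stated in the sources used here, and the main fit used none.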

Additional observations from a re-analysis of the deposited data

How the results depend on the processing

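None of the 32 genes was called under any of the 18 alternatives, in which the genes called in all ran from 2 to 726 against 83. At an adjusted p under 0.05 with any fold, limma gave 1 gene with a mean FPKM of at least 1 (Pdp1, 2.42% of all genes), 4 with voom on recovered reads (4.52%) and 4 with array weights (6.37%; Got1, Dlat, Mpc2 and Pdp1 in both), 3 among protein-coding genes (Got1, Mpc2 and Pdp1, 3.4%), and 0 to 5 when 1 library was left out (0.039% to 10.3%). With the fold threshold, voom called 314 genes in all. The number at an unadjusted p under 0.05 was 10 in the main fit, against 20.9% of all genes. It was 6 with scaling to the FPKM outside the mitochondrial chromosome, 4 with the mitochondrial share as a covariate and 5 to 13 when 1 library was left out. The share of all genes at an unadjusted p was not computed for these alternatives, so their counts cannot be read as particular to the 32 genes. The median log2 fold change was -0.13 with that scaling, -0.11 with quantile normalization, 0.15 with the covariate and 0.054 to 0.11 when 1 library was left out. Without overlap, 4 genes were higher and 6 lower with that scaling, and 6 higher and 6 lower with quantile normalization (12.6% and 12.4% of all genes). Without WT replicate 3, 12 were higher and 5 lower (22.3% and 22.7% of all genes).

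Direction held in all 18 alternatives for Got1, Dlat, Mpc2, Pdp1, Pdp2, Pdk4, Idh3a, Idh3b, Idh2, Dlst, Pdhx, Pcx and Got2. For the others it turned in at least 1. With scaling outside the mitochondrial chromosome, log2 fold changes turned to -0.092 for Mdh1, -0.18 for Ogdh, -0.16 for Cs, -0.11 for Pdha1, -0.16 for Pdhb, -0.16 for Fh1, -0.069 for Suclg1, -0.12 for Pdpr and -0.15 for Aco1. With quantile normalization they were -0.10 for Mdh1, -0.16 for Ogdh, -0.047 for Mdh2, -0.17 for Cs, -0.12 for Pdha1, -0.15 for Pdhb, -0.11 for Fh1, -0.082 for Suclg1, -0.046 for Pdpr and -0.016 for Aco1. Array weights gave -0.059 for Ogdh, -0.0074 for Pdhb and 0.0024 for Sucla2. The mitochondrial share as a covariate gave 0.050 for Sucla2, 0.060 for Idh3g, 0.097 for Dld, 0.031 for Pdk2, 0.083 for Suclg2, 0.30 for Pdk1, 0.18 for Mpc1 and 0.10 for Idh1. Over the fits without 1 library, the ranges were -0.027 to 0.13 for Aco1, -0.0038 to 0.053 for Fh1, -0.10 to 0.030 for Idh3g, -0.087 to 0.10 for Ogdh, -0.051 to 0.083 for Pdhb, -0.25 to 0.044 for Pdk1, -0.046 to 0.039 for Pdk2, -0.52 to 0.12 for Pdk3 and -0.068 to 0.051 for Sucla2. The cause was not tested. With the replicate number as a block, 0 of the 32 genes and 11 genes in all were called. Correlations of same-numbered deviations were -0.14, 0.0074 and -0.08, so the samples share only a number.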

Other observations

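Nnt, the transhydrogenase that makes NADPH in the mitochondrial matrix, was near 0 in both groups, at 0.0561 to 0.275 FPKM over the 6 libraries, from 6 to 32 reads. The table lists a second gene of this name that lies almost entirely over the first on the same strand, with 0 reads in each library, so the count on this gene is uncertain.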
